A study of Mus musculus with 6 samples.

Results

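The genes described are 6: the stefin A genes Stfa1, Stfa2, Stfa2l1, Stfa3 and Cstdc4, and Asprv1, which is not a stefin. They were taken by symbol from the 32285 genes of the deposited tables, and all 6 were present. Their UMIs, the counted RNA molecules, were summed per library within neutrophils. A barcode counted as a neutrophil when S100a8 and S100a9 made up at least 5% of its UMIs and Csf3r, Cxcr2 and Ly6g together had at least 2 UMIs. Of 61736 barcodes that passed the quality filter, 16957 met this rule. Neutrophils were split at 0.5% of UMIs from the granule genes Ltf, Ngp and Camp, into 13370 granule-poor and 3587 granule-rich cells. The cells were thus chosen by their own UMIs of those genes, so differences between neutrophils and other barcodes, or between the granule classes, are described without a test. The 6 genes were named with earlier results of these data known, so their calls between groups are no independent evidence.

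The cells came from mouse lung, digested and enriched for the leukocyte marker CD45 with magnetic beads. Wild-type (WT, given as C65BL6) and NOS1-/- mice (KO, lacking the neuronal nitric oxide synthase) received 10 mg/kg lipopolysaccharide (LPS, a bacterial cell wall component) or vehicle into the peritoneum, and were sampled after 4 h. There was 1 vehicle library per genotype, WT vehicle and KO vehicle, and 2 libraries each of WT LPS and KO LPS. The sources used here do not give the age or sex of the mice, the strain background of the KO or the number of animals behind a library. Nothing says that the 2 LPS libraries of a genotype are separate animals, so the p-values may reflect technical spread alone.

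Stefins are small intracellular members of the cystatin family. They block cysteine proteases of the papain family, among them cathepsins B, L and S, by sitting in the active site cleft. Mice carry a cluster of stefin A genes where other mammals have few, and several are known as transcripts of neutrophils. Asprv1 encodes a retroviral-like aspartic protease known from the outer layers of skin, where it acts on filaggrin, and also found in neutrophils.

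The 5 stefin A genes lie in 1 cluster on chromosome 16 (GENCODE M21, mm10), where the annotated stefin genes span 335 kb. Stfa2l1 was at chr16:36156811-36161953, Cstdc4 at chr16:36184212-36188111 and Stfa1 at chr16:36276951-36285373, all on the plus strand. Stfa2 at chr16:36403992-36408457 and Stfa3 at chr16:36450537-36455392 were on the minus strand. Asprv1 lies elsewhere, at chr6:86628164-86629710 on the plus strand. No other annotated gene overlapped any of the 6.

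A stretch of 13 bases stood in front of the RefSeq starts of all 5 stefin A genes and was absent from the Asprv1 window. It is shown, in capitals with the bases around it, because these 5 genes share it just before their RefSeq starts. The GENCODE genes of Stfa1 and Stfa2 begin further upstream, so by that annotation the run lies inside these genes. The windows are from RefSeq on GRCm38.p6, at chr16:36277105-36277134 (Stfa1, plus), chr16:36408376-36408405 (Stfa2, minus), chr16:36156765-36156794 (Stfa2l1, plus), chr16:36455407-36455436 (Stfa3, minus) and chr16:36184170-36184199 (Cstdc4, plus).
Stfa1: gctttcggatACCTTTAAAACCCtgagtct
Stfa2: gcttacagaaACCTTTAAAACCCtgagtct
Stfa2l1: gtttacagaaACCTTTAAAACCCtgagtct
Stfa3: cttacagataACCTTTAAAACCCcgagtct
Cstdc4: gtttacagatACCTTTAAAACCCtgactct
The run ended 19 to 23 bases before the RefSeq start of each gene. It was found by comparing these sequences, and on either strand it occurred in the promoters of 9 genes, among 32851 promoters of 300 bases (0.0274%). The other 4 were Csta3, Cstdc3, Cstdc5 and Gm7260. The promoters of Csta1 and Csta2, in the same cluster, did not hold it. Over the 100 bases before the start, pairs of the 5 stefin A genes were 75.2% to 83.5% identical, against 43.0% to 48.7% between any of them and Asprv1. Of 5 motifs searched on both strands, the C/EBP pattern TTGCNNAA was in Stfa1 only (10.8% of all promoters). The STAT pattern TTCNNNGAA was in Cstdc4 only (8.30%), and an NF-kB pattern was in Stfa1 and Asprv1 (20.7%). The PU.1 pattern AGGAAGT and an interferon-response pattern were in none of the 6 windows (9.35% and 3.44% of all promoters).

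The likeness extends into the transcripts, which bears on how far reads can be told apart. Of all 50-base windows of the Cstdc4 transcript, 35.6% also occurred in Csta2, a neighbouring stefin gene. The share was 25.4% for Stfa1 (with Cstdc5 and Cstdc6), 24.6% for Stfa2l1 and 15.9% for Stfa2 (mostly with each other). Stfa3 and Asprv1 shared none. The sources used here do not say how reads matching more than 1 gene were counted, so the counts of Cstdc4, Stfa1, Stfa2l1 and Stfa2 are uncertain. Over the last 300 bases of the transcripts the shares were 33.9% for Cstdc4, 35.5% for Stfa1, 24.3% for Stfa2l1 and 25.1% for Stfa2.

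Library totals ran from 55361477 to 115225284 UMIs. Granule-poor neutrophils numbered 401 in WT vehicle and 379 in KO vehicle, and 2090 to 3890 in each LPS library. Their median depth was 1546 and 2302 UMIs in the vehicle libraries and 3979.5 to 5844 in the LPS libraries. Only 1 and 2 granule-rich cells were found in the vehicle libraries, against 651 to 1066 in the LPS libraries. Nos1 had 0 to 5 UMIs per library over all barcodes, so it gave no check of the genotype. Between any pair of libraries 20 to 35 barcodes were shared. Sex-linked transcripts did not match across the groups. Of the WT vehicle neutrophils, 89 had a UMI of a Y-linked gene (Ddx3y, Eif2s3y, Kdm5d or Uty) and 0 had Xist, the transcript of the inactive X, while in KO vehicle 79 had Xist and 0 a Y-linked gene. In WT LPS, 1566 and 1522 neutrophils had Xist and 7 and 2 a Y-linked gene. In KO LPS, 917 and 584 had Xist and 1147 and 736 a Y-linked gene, and 285 and 188 of these had both. Sex marks and the groups cannot be told apart in the comparison of LPS with vehicle within WT, so values by sex mark are given below where the cells allow it.

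In the LPS libraries, UMIs of all 6 genes lay mostly in neutrophils. In these 4 libraries, neutrophils held 80.8% to 84.8% of all Cstdc4 UMIs, 80.4% to 85.9% of those of Stfa2l1 and 80.8% to 83.4% of those of Asprv1. They held 86.6% to 88.0% for Stfa1, 88.6% to 95.5% for Stfa2 and 86.7% to 96.2% for Stfa3. The vehicle libraries, with few neutrophils, had lower shares, from 59.2% to 77.9% for Cstdc4, Stfa2l1 and Asprv1. In KO vehicle neutrophils held 43.6% of the UMIs of Stfa1, 34.8% of those of Stfa2 and 20.0% of those of Stfa3, the last from 10 UMIs in all. In granule-poor cells of the LPS libraries, Cstdc4 was 9.24 to 12.8 times its level in monocyte-like barcodes and 26.3 to 45.3 times that in B-cell-like barcodes, which should lack it. Asprv1 was 8.33 to 10.7 times its monocyte-like level. With every cell thinned to 1000 UMIs, 41.6% to 44.3% of granule-poor LPS neutrophils had a Cstdc4 UMI, against 1.54% to 3.59% of B-cell-like barcodes. Without thinning the shares were 53.2% to 58.7% and 2.76% to 9.02%. The median depths before thinning were 3979.5 to 5844 UMIs in those neutrophils and 2329 to 4420 in the B-cell-like barcodes.

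Under LPS the stefin A genes were higher in granule-poor neutrophils. Levels are UMI counts scaled to a fixed total per class and library (CPM). Cstdc4 stood at 441 CPM in WT vehicle and 832 in KO vehicle, against 2126 and 2078 in WT LPS and 2175 and 1796 in KO LPS. All 4 LPS libraries lay above both vehicle libraries. The share of all genes with such an order is not given here, for this gene or those below. In edgeR's quasi-likelihood test with TMM scaling, Cstdc4 rose by a log2 fold change of 2.62 ± 0.08 (SE), adjusted p = 1.7e-11.

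Stfa1 stood at 69.4 and 83.3 CPM in WT and KO vehicle, 160 and 163 in WT LPS and 138 and 143 in KO LPS. The LPS libraries did not overlap the vehicle libraries, and the edgeR log2 change was 1.86 ± 0.10 (adjusted p = 2.4e-09). Stfa2 was scarcer, at 13.9 and 8.44 CPM (9 and 8 UMIs) in WT and KO vehicle, 34.2 and 31.2 in WT LPS and 41.8 and 43.8 in KO LPS. It rose by 2.66 ± 0.20 (edgeR, adjusted p = 1.3e-07), again with no overlap. How many of all genes show no overlap between LPS and vehicle libraries is not given here.

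Stfa2l1 was the stefin gene with the smallest change. It stood at 633 CPM in WT vehicle and 794 in KO vehicle, 909 and 833 in WT LPS and 844 and 802 in KO LPS. The lowest LPS library, KO LPS 2, was just above KO vehicle, and the edgeR log2 change was 1.13 ± 0.06 (adjusted p = 3.2e-09). With plain totals it was 0.26 over both genotypes, 0.46 within WT and 0.05 within KO, where it was not called (edgeR, adjusted p = 0.63). Stfa3 had 8 UMIs in WT vehicle (12.3 CPM) and 2 in KO vehicle (2.11 CPM, exact 95% Poisson interval 0.26 to 7.62), and 29.6, 17.3, 21.0 and 16.8 CPM in WT LPS 1 and 2 and KO LPS 1 and 2. Its edgeR change was 2.93 ± 0.59 (adjusted p = 0.0010), which rests on those few vehicle UMIs. With plain totals Stfa3 was not called within WT (0.94, adjusted p = 0.43) or within KO (3.18, adjusted p = 0.065). The ratio of LPS to vehicle for Stfa3 was 1.96 in WT (interval 0.99 to 4.56, counting error only) and 9.28 in KO (2.56 to 76.8).

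Asprv1 did not follow the stefin A genes. It stood at 443 CPM in WT vehicle and 540 in KO vehicle, 309 and 327 in WT LPS and 663 and 742 in KO LPS. The WT LPS libraries were below both vehicle libraries and the KO LPS libraries above both. Averaged over genotypes, the edgeR log2 change was 0.82 ± 0.08 with TMM scaling (adjusted p = 8.3e-07) and -0.05 ± 0.07 with plain library totals (adjusted p = 0.59). Its direction under LPS thus depends on the scaling, and within WT alone it was 0.58 with TMM and -0.48 with plain totals.

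**Figure D1:**
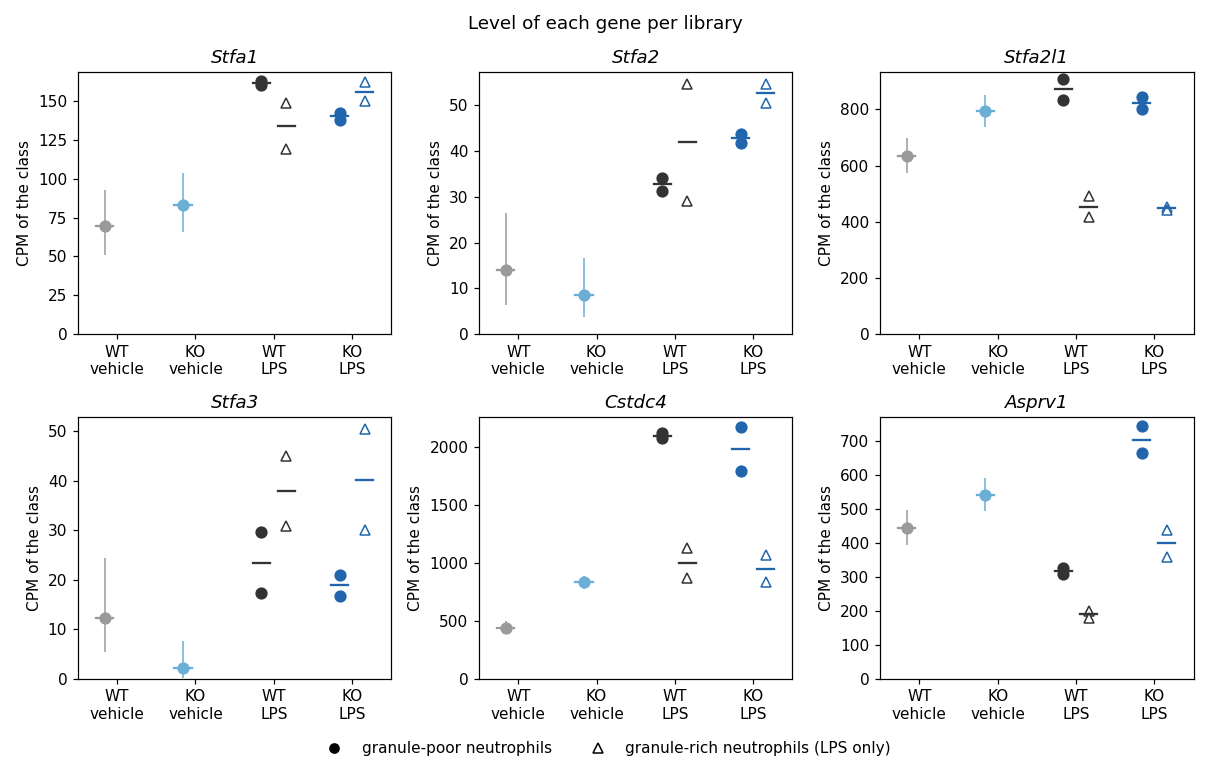
Level of each gene in CPM of the class (vertical axis, linear from 0) by group. Filled circles are granule-poor and open triangles granule-rich neutrophils, 1 symbol per library; short lines are group means, and thin vertical lines on the single vehicle libraries are exact 95% Poisson intervals. Cstdc4 stands at 441 and 832 CPM in vehicle and at 1796 to 2175 in LPS, and Asprv1 at 309 and 327 in WT LPS against 663 and 742 in KO LPS.

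With TMM scaling 6 of the 6 genes were called higher under LPS (edgeR, adjusted p under 0.05), and 29.2% of the 12902 genes tested were. Called lower were 0 of 6 by edgeR and 0 by DESeq2, also at an unadjusted p under 0.05. Over all genes edgeR called 18.9% lower, and DESeq2 1847 of 12902. With plain totals 5 of 6 were called higher, against 12.7% of all genes, and 0 lower, against 36.0%. The median of all genes moved from 0.55 with TMM to -0.32 with plain totals, a shift of 0.86. A change of scaling moves all genes by nearly the same amount, so their distance from that median must stay nearly the same. With TMM and plain totals this distance was 2.08 and 2.07 for Cstdc4, 1.31 and 1.30 for Stfa1 and 2.11 and 2.11 for Stfa2. It was 0.58 and 0.58 for Stfa2l1, 2.38 and 2.38 for Stfa3 and 0.28 and 0.27 for Asprv1. The vehicle groups hold 1 library each, so the spread behind these tests comes from the 2 pairs of LPS libraries. Markers of other cells moved with LPS too. All 6 monocyte markers were present, summing to 275 and 320 CPM in the vehicle libraries and 853 to 1231 in the LPS libraries. The 4 B cell markers fell from 235 and 321 to between 30.7 and 85.7 CPM. Their part in the changes was not tested.

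Among the 6 genes, Asprv1 had the largest difference between genotypes under LPS. The 2 KO LPS libraries (703 ± 55.9 CPM, mean ± SD, n = 2) lay above the 2 WT LPS libraries (318 ± 12.7). The log2 difference, KO against WT, was 0.88 ± 0.07 in edgeR (1.84-fold, adjusted p = 1.1e-06). It was called in each of the 20 alternatives run, at 0.74 to 1.14. The granule-rich cells gave the same order, with 200.2 and 178 CPM in WT LPS and 437 and 359 in KO LPS, and an Asprv1 difference of 0.87 ± 0.10 (edgeR, adjusted p = 0.00046).

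Of the 5 stefin A genes, 4 were called lower in KO LPS with TMM scaling and 1 with plain totals. In granule-poor cells the edgeR log2 differences, KO against WT, were -0.47 ± 0.06 for Stfa1 (adjusted p = 4.7e-05), -0.34 ± 0.06 for Stfa2l1 (0.00052) and -0.34 ± 0.07 for Cstdc4 (0.0035). Stfa3 was at -0.56 ± 0.19 (adjusted p = 0.041), a call kept in 9 of 20 alternatives. It ended without WT LPS replicate 1 (-0.11, adjusted p = 0.62) and by DESeq2 (-0.59, adjusted p = 0.31), among others. Cstdc4 was at -0.22 (edgeR, adjusted p = 0.039) without KO LPS replicate 2. Stfa2 was at 0.12 ± 0.08 and was not called (adjusted p = 0.26). Without scaling, the 2 groups overlapped in CPM for Cstdc4, Stfa2l1 and Stfa3 and did not for Stfa1 and Stfa2. With 2 libraries on each side order alone often gives no overlap, and the share over all genes is not given here.

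In granule-poor cells 1 of 6 genes was thus called higher in KO and 4 of 6 lower, against 11.8% and 15.1% of the 12902 genes tested. DESeq2 called 1 higher and 3 lower, against 300 and 712 of the 12902 genes. With plain totals, which moved the median of all genes from 0.00 to 0.27, 2 of 6 were called higher (Asprv1 at 1.14, and Stfa2 at 0.38, adjusted p = 0.0030) and 1 lower (Stfa1 at -0.21, adjusted p = 0.0089), against 30.2% and 5.51% of all genes. Cstdc4 and Stfa2l1 were then each at -0.08 (adjusted p = 0.44 and 0.26). In granule-rich cells 1 of 6 was called higher, Asprv1, against 9.2% of the 9992 genes tested. Called lower were 0 of 6 by edgeR and by DESeq2 (1 by each at an unadjusted p under 0.05). Over all genes edgeR called 11.3% lower, and DESeq2 700 of 9992. With plain totals 1 of 6 was called higher and 0 lower there, against 23.1% and 5.25%. The sum of the 6 monocyte markers in granule-poor cells was 1231 and 1168 CPM in WT LPS and 853 and 884 in KO LPS, and its part in these differences was not tested.

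**Figure D2:**
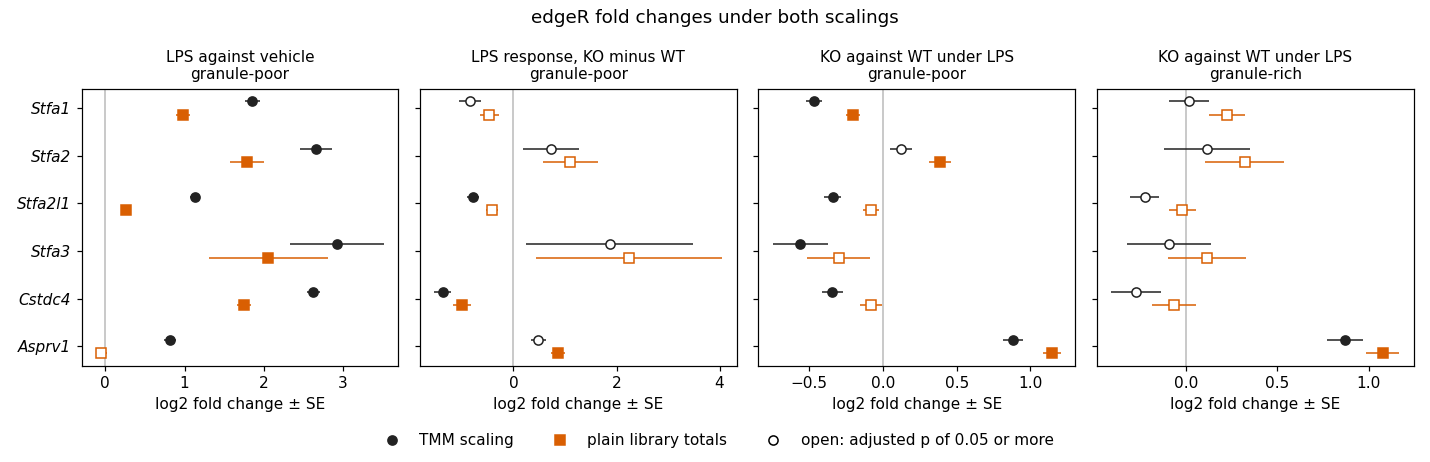
Log2 fold changes from edgeR (horizontal axis, bars ± SE) of the 6 genes in 4 comparisons, with TMM scaling (black circles) and plain library totals (orange squares). Open symbols have an adjusted p of 0.05 or more. Asprv1 is above 0 in KO against WT under LPS in both classes and under both scalings, and the stefin A genes lie nearer to 0 there.

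The response to LPS itself differed between genotypes for 2 of the 6 genes. Cstdc4 rose by 3.31 ± 0.13 in WT and 1.94 ± 0.11 in KO (edgeR log2 changes), and the difference, KO minus WT, was -1.37 ± 0.16 (adjusted p = 0.00045). For Stfa2l1 the changes were 1.52 and 0.74, and the difference was -0.78 ± 0.12 (edgeR, adjusted p = 0.0024). With plain totals Cstdc4 was at -0.997 (adjusted p = 0.0096) and Stfa2l1 was no longer called, at -0.41 (adjusted p = 0.074). Among all genes 2.29% were called lower and 1.27% higher with TMM. With plain totals 1 of 6 was called lower and 1 higher, Asprv1 at 0.86 (adjusted p = 0.0071), against 1.0% and 5.17% of all genes.

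The other 4 genes were not called in this comparison with TMM scaling. Stfa1 was at -0.84 ± 0.22 (edgeR, adjusted p = 0.055) and Asprv1 at 0.48 ± 0.15 (adjusted p = 0.12). Stfa2 was at 0.73 ± 0.55 (adjusted p = 0.68) and Stfa3 at 1.87 ± 1.62 (0.65). Stfa1 was called without WT LPS replicate 1, WT LPS replicate 2 or KO LPS replicate 2 (-0.84, -0.82 and -0.87), and Asprv1 without WT LPS replicate 1, WT LPS replicate 2 or KO LPS replicate 1 (0.46, 0.53 and 0.61). Called higher were 0 of 6 by edgeR and DESeq2, and 1 by each at an unadjusted p under 0.05. Over all 12902 genes edgeR called 164 higher and DESeq2 66, at an adjusted p under 0.05.

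The difference in response rests on the 2 vehicle libraries, 1 a side. Their ratio in plain CPM, KO vehicle over WT vehicle, was 1.89 for Cstdc4 (exact 95% interval 1.65 to 2.17, counting error only). It was 1.26 for Stfa2l1 (1.11 to 1.42), 1.22 for Asprv1 (1.05 to 1.41) and 1.20 for Stfa1 (0.82 to 1.77). Stfa2 was at 0.61 (0.20 to 1.77) and Stfa3 at 0.17 (0.02 to 0.86), from 8 or fewer KO vehicle UMIs each. Each ratio compares 1 library with 1 other, which also differ in sex mark, and was not tested.

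Within the neutrophils the 6 genes separated by granule content. In the LPS libraries the granule-rich cells held less Cstdc4 than the granule-poor ones, at 1130 and 868 CPM in WT LPS and 1065 and 839 in KO LPS. The same held for Stfa2l1 (492, 415, 452 and 443 CPM) and for Asprv1. Stfa3 went the other way, at 44.9 and 30.9 CPM in WT LPS and 50.4 in KO LPS 1, all above their granule-poor values, and in KO LPS 2 at 1.78 times its granule-poor level. Stfa1 (148, 119, 162 and 150 CPM) and Stfa2 (54.7, 29.1, 54.8 and 50.5) had no common direction over the 4 libraries.

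Finer bins of the granule share gave the same picture. Cstdc4 fell in each step in all 4 libraries, from 2893, 2815, 3167 and 2290 CPM in cells with no granule UMI to 906, 431, 518 and 516 in cells at 2% and over. Stfa2l1 was 2.91 to 4.15 times higher, and Asprv1 2.22 to 3.22 times higher, at no granule UMI than at 2% and over. Stfa3 was lower at no granule UMI in the same comparison, at 11.4, 8.94, 17.5 and 5.18 CPM against 46.6, 35.3, 22.8 and 22.8. Median depth moved with the bins, from 3061 to 4563 UMIs at no granule UMI to 6632.5 to 9955 at 2% and over, and its part was not tested. Asprv1 was higher in KO than in WT in each bin.

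**Figure D3:**
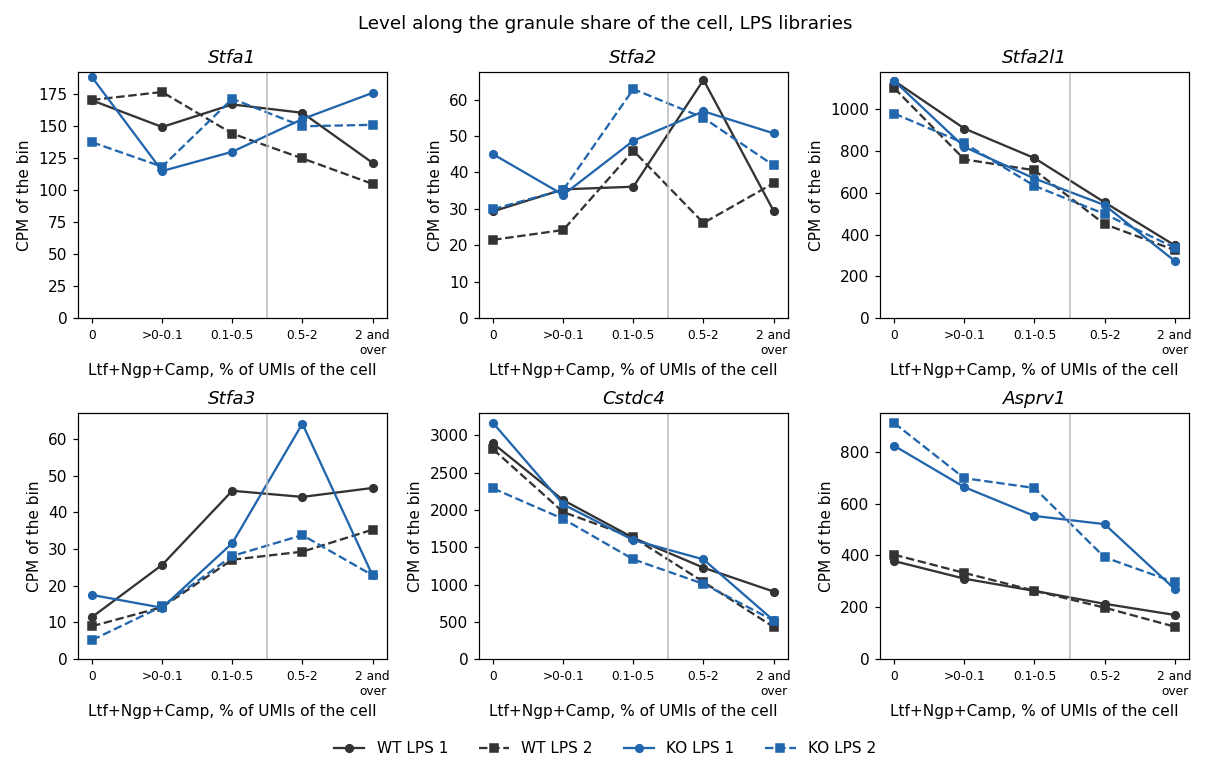
Level of each gene (CPM of the bin, linear from 0) in 5 bins of the share of a cell's UMIs from Ltf, Ngp and Camp, for the 4 LPS libraries; the grey line is the 0.5% split. Cstdc4, Stfa2l1 and Asprv1 fall from left to right in each library, with Cstdc4 going from 2290 to 3167 CPM down to 431 to 906, while Stfa3 starts at its lowest or near it.

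The UMIs were spread unevenly over cells, and differently for each gene. Cells here were thinned to 1000 UMIs and shallower ones left out. Stfa1 was found in few granule-poor LPS neutrophils, 5.22% to 5.87%, but with up to 31 UMIs in 1 cell, and 21.5% to 38.9% of its UMIs lay in cells with 10 or more. Its variance over cells was 6.95 to 8.68 times its mean. Cstdc4 had a UMI in 44.3%, 42.0%, 44.3% and 41.6% of these cells (53.2% to 58.7% without thinning), and 42.8% to 54.3% of its UMIs came from the 6.16% to 9.18% of cells with 10 or more. Asprv1 was more even than both, with a variance 2.24 to 2.71 times its mean, and 0.77% to 3.98% of its UMIs in cells with 10 or more.

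The share of cells with a UMI followed the levels in the groups for Cstdc4 and Asprv1. For Cstdc4 it was 15.6% in WT vehicle and 23.7% in KO vehicle. For Asprv1 it was 24.8% and 31.2% in vehicle, 21.2% and 21.3% in WT LPS and 35.8% and 37.6% in KO LPS. For Stfa2l1 it was 24.5% and 32.3% in vehicle and 31.9% to 34.7% in LPS. Between genotypes under LPS the share of Stfa1 did not follow its level. Stfa1 UMIs per thinned cell were 0.196 and 0.202 in WT LPS and 0.164 and 0.181 in KO LPS. For Stfa2l1 these means overlapped, at 1.09 and 0.997 in WT LPS and 0.997 and 1.01 in KO LPS. Its lower level in KO was called with TMM scaling and not with plain totals. Cells with no Stfa2l1 UMI were 66.1% and 68.1% in WT LPS and 65.9% and 65.3% in KO LPS. Cells with no Stfa1 UMI were 94.8% and 94.7% in WT LPS and 94.6% and 94.1% in KO LPS. Stfa2 (1.62% to 2.45%) and Stfa3 (0.91% to 1.60%) were found in few LPS cells.

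**Figure D4:**
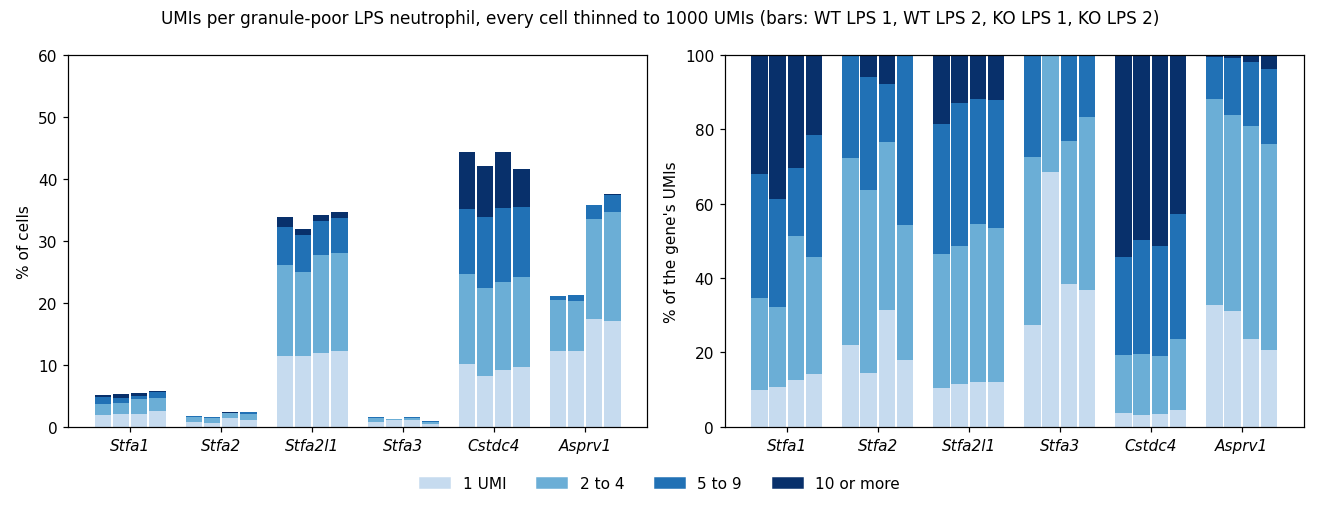
Share of granule-poor LPS neutrophils (left, % of cells) and share of the gene's UMIs (right, %) by the number of UMIs of that gene in the cell, with every cell thinned to 1000 UMIs; the 4 bars per gene are WT LPS 1, WT LPS 2, KO LPS 1 and KO LPS 2. Cstdc4 has 42.8% to 54.3% of its UMIs in cells with 10 or more, Asprv1 0.77% to 3.98%.

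Cells rich in Stfa2l1 tended to be rich in Cstdc4. The 2 transcripts were 77.4% identical but had no 50-base window in common. Pearson's r of log(UMIs + 1) was taken over the 2079 to 3889 thinned granule-poor cells of each LPS library. It was 0.51, 0.52, 0.43 and 0.42, as a description of cells that share a library. It was 0.15 to 0.26 between Cstdc4 and Csta2 or Csta3. Between Asprv1 and the 5 stefin A genes it lay between -0.03 and 0.09, and these sparse counts show no relation. Between Stfa1 and Cstdc4 it was 0.11 to 0.20.

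The genotypes were also compared in cells of like sex mark. In KO LPS, 285 and 188 of the 917 and 584 neutrophils with Xist also had a Y-linked UMI. A mark thus does not show the sex of a cell there, and cells of like mark are not known to be of like sex. Among granule-poor cells with Xist and no Y-linked UMI, Asprv1 stood at 251 and 257 CPM in WT LPS and 503 and 573 in KO LPS. The edgeR log2 difference in those cells was 0.97 ± 0.08 (adjusted p = 0.00035), as large as over all cells. In the KO LPS libraries Asprv1 was higher in cells with a Y-linked UMI and no Xist, at 757 and 795 CPM, or 1.51 and 1.39 times the Xist-marked level. So were Cstdc4 (1.20 and 1.40 times), Stfa2l1 (1.08 and 1.27), Stfa1 (1.53 and 1.06) and Stfa2 (1.52 and 3.02). Stfa3 was lower (0.77 and 0.88). Cstdc4 overlapped between the genotypes in cells with Xist, at 1657 and 1585 CPM in WT LPS and 1879 and 1267 in KO LPS. The KO vehicle library also has such cells, 77 of them, and there Cstdc4 stood at 641 CPM and Asprv1 at 435 CPM, both below the 2 KO LPS libraries of the same mark. In these cells with Xist the differences of the stefin A genes were not called: -0.14 ± 0.17 for Cstdc4 (edgeR, adjusted p = 0.62), -0.10 ± 0.12 for Stfa2l1 (0.63), -0.18 ± 0.09 for Stfa1 (0.22) and 0.31 ± 0.24 for Stfa3 (0.44). Fewer cells were left, 258 to 1072 per library, and fewer genes were called in all. Called lower in KO were 538 of 10607 genes in these cells and 1951 of 12902 over all granule-poor cells. The part of sex in the calls over all cells was not tested. Cells with Xist UMIs were deeper than cells with neither mark, with medians of 7319 to 10629 against 3369 to 5121 UMIs.

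**Figure D5:**
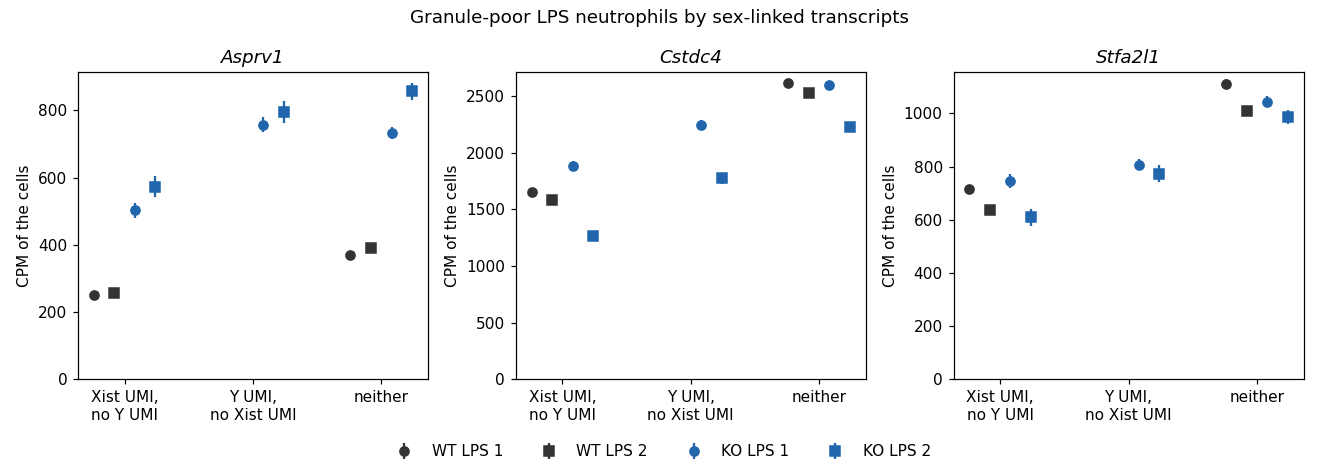
Level of Asprv1, Cstdc4 and Stfa2l1 (CPM of the cells, linear from 0, bars are exact 95% Poisson intervals of counting error) in granule-poor cells of the 4 LPS libraries, by sex-linked transcripts; WT LPS has almost no cells with Y-linked UMIs. In cells with Xist, Asprv1 stands at 251 and 257 CPM in WT LPS and at 503 and 573 in KO LPS.

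Other genes of the cluster rose with LPS as well. Of 5 other stefin A cluster genes in the tables, 4 passed the low-count filter and 3 were called higher under LPS, with TMM scaling and with plain totals alike (29.2% and 12.7% of all genes). Csta2 went from 2 UMIs in each vehicle library to 56.3 to 65.0 CPM in the LPS libraries. Its ratio of LPS to vehicle was 19.8 in WT (interval 5.49 to 164, counting error only) and 27.9 in KO (7.71 to 230.3). Csta3 was at 15.4 and 7.38 CPM in vehicle and 32.7 to 49.1 in LPS, with an edgeR log2 change of 2.73 ± 0.25 (adjusted p = 8.3e-07). Cstdc5 stood at 47.8 CPM in WT vehicle, 8.44 in KO vehicle and 49.8 to 73.3 in LPS, at 2.39 ± 0.29 (edgeR, adjusted p = 1.3e-05). Csta2 and Cstdc5 each overlap an antisense gene, and their reads cannot be told apart if strand was not used in counting. In KO against WT under LPS, 2 of 4 were called lower with TMM (15.1% of all genes): Csta3 at -0.67 and Csta2 at -0.30, the latter not with plain totals (-0.04, adjusted p = 0.70).

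Stefins block proteases of the papain family, whose cathepsins were listed together with legumain, a protease of another family. Of these 11 genes, 7 were called higher under LPS and 0 lower with TMM (29.2% and 18.9% of all genes), and 5 higher and 1 lower with plain totals (12.7% and 36.0%). Legumain, Lgmn, was among those called higher (2.14 with TMM). Their median log2 change was 1.97 with TMM, against 0.55 over all 12902 genes. Ctsb, cathepsin B, stood at 94.1 and 148 CPM in vehicle, 531 and 515 in WT LPS and 443 and 472 in KO LPS (edgeR 2.92 ± 0.08, adjusted p = 6.2e-12). Ctss, cathepsin S, rose by 2.78 ± 0.08, and Ctsc, which activates granule serine proteases, by 3.10 ± 0.16. In KO against WT under LPS, 0 of 11 were called higher and 5 lower with TMM (11.8% and 15.1% of all genes), and 2 higher and 2 lower with plain totals (30.2% and 5.51%). Ctsb was lower under both scalings (-0.46 and -0.20), as was Ctsz (-0.48 and -0.22).

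Other inhibitors and neighbouring lists gave mixed results. Cstb, the stefin B gene, was at 182 and 116 CPM in vehicle, 221 and 211 in WT LPS and 150 and 140 in KO LPS. It was higher under LPS (1.16, or 0.28 with plain totals) and lower in KO under LPS (-0.84, or -0.58). Cst3, the secreted cystatin C, fell under LPS from 1599 and 1406 CPM to between 554 and 661. Of 6 serine protease inhibitors, 5 were called higher and 1 lower under LPS with TMM (29.2% and 18.9% of all genes), and 4 and 1 with plain totals (12.7% and 36.0%), among them Wfdc21 at 4.07 and 3.20. Slpi, an elastase inhibitor, was the 1 called lower (-0.66 and -1.53). Of the 4 other cathepsins, 3 were called lower under both scalings, Ctsa, Ctsd and Ctse.

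Genes of neutrophil maturation are read against the same shares of all genes, 29.2% higher and 18.9% lower under LPS with TMM, and 12.7% and 36.0% with plain totals. Of 10 early genes, 8 were called higher and 0 lower under LPS with TMM (6 and 0 with plain totals). Of 8 late genes, 3 were called higher and 4 lower with TMM (1 and 7 with plain totals). In KO against WT under LPS, 1 early gene was called higher and 5 lower with TMM (2 and 4 with plain totals), and 3 late genes higher and 3 lower (5 and 1), where all genes were at 11.8% and 15.1% (30.2% and 5.51%). Mmp8, a granule collagenase (0.65, or 0.91 with plain totals), and Mmp9, gelatinase B (1.06, or 1.32), were higher. The early gene Lcn2 went the other way in granule-poor cells, at 36606 and 36921 CPM in WT LPS and 28137 and 29260 in KO LPS. So did the late gene Il1b, at 9347 and 9540 CPM in WT LPS and 8288 and 8394 in KO LPS. Of 15 epidermal genes, 10 to 13 had no UMI in the granule-poor cells of a library. The keratin gene Krt5 and filaggrin, Flg, were at 0 in all 6, and the list summed to 6.33 to 8.84 CPM. Of the 3 epidermal genes tested, 1 was called higher under LPS with TMM and 0 with plain totals.

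Levels also differed among granule-poor LPS cells by their chemokines. Cells were split at 5 UMIs of Ccl3 and Ccl4 after thinning, which put 65.6% to 69.4% of WT LPS and 43.2% to 45.1% of KO LPS cells in the higher class. Cstdc4 was 1.23, 1.25, 1.26 and 1.23 times higher in that class in the 4 libraries. Asprv1 was at 1.03 and 1.14 in WT LPS and at 0.83 and 0.70 in KO LPS. Stfa2 was at 0.77, 0.51, 0.45 and 0.48, so it was lower in the chemokine-rich class in each library. By interferon-induced genes 94.2% to 99.2% of LPS cells fell in the higher class, which left 29 to 157 cells in the other.

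The genes whose pattern was most like the summed 5 stefin A genes were St3gal6, Gsap, Il10rb, Myd88, Trim30d, Plk2, Arg2 and Mir22hg. Pearson's r of log2(CPM + 1) was 0.996 to 0.999, over 12 points of 6 libraries and 2 classes among 2187 genes. That order rests on the granule-rich vehicle points of 1 and 2 cells, where the stefin sum was 0. Over the 10 points of at least 30 cells the leading genes were Cd9 (r = 0.95), Nfe2l2, Ezr, St3gal6, Nsd3, Trem1, Srgn and Sqstm1, down to 0.93, and 1 of the 8 was shared.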

How the data were processed

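The deposited matrices hold raw UMI counts per gene and barcode. The authors made them with Cell Ranger 6.1.0 on mm10, and used Seurat 4.1.0 in R 4.1.3, per the submitters' processing notes. The sources used here do not say how reads were assigned to similar genes. Barcodes with at least 200 genes and at most 10% mitochondrial UMIs were kept. No doublet caller was run, and barcodes with 2 or more UMIs of other cell types' markers were removed in an alternative. UMIs of each library's class were added up and tested with edgeR 4.0.16 (R 4.3.3; TMM, filterByExpr, 1 coefficient per group, 2 residual degrees of freedom, Benjamini-Hochberg over all genes, threshold 0.05). DESeq2 1.42.0 was the other tool. The fits were tested on simulated data. Classes under 30 cells in a library were not tested, which left LPS against vehicle and the difference in response untested in granule-rich cells. Thinned cells had 1000 UMIs. Intervals are exact, at 95%, and cover counting error only. The members, gene lists and named-gene rule were chosen with earlier results of these data known: the 6 genes always, and listed genes past the threshold or at 100 CPM, of which some are shown. Positions came from GENCODE M21, where 32158 of 32285 gene identifiers were found. Alternatives by sex mark, by LPS libraries alone, by plain totals within a genotype and by points of at least 30 cells were chosen after seeing the data.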

Additional observations from a re-analysis of the deposited data

Results flagged for a closer look

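The LPS response of Cstdc4 in granule-poor neutrophils differed between genotypes by an interaction term (edgeR, KO minus WT, log2 -1.37 ± 0.16, adjusted p = 0.00045). It was called in each of the 18 alternatives run, at -1.47 to -0.997. The plain levels were 441 CPM in WT vehicle, 832 in KO vehicle, 2126 and 2078 in WT LPS and 2175 and 1796 in KO LPS, and only 1 vehicle library stands on each side. The same term was -0.78 ± 0.12 for Stfa2l1 (edgeR, adjusted p = 0.0024). It was called in 17 of 18 alternatives, and with plain totals it was -0.41 (adjusted p = 0.074). WT vehicle neutrophils carried Y-linked transcripts and KO vehicle neutrophils Xist, so genotype and sex mark cannot be told apart in the vehicle libraries.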

How the results depend on the processing

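Of 467 alternative values of single genes, 394 kept their direction and their side of the threshold, 19 lost a call, 34 gained one and 20 changed sign. Causes were not tested. With plain library totals, 2 genes were called higher and 1 lower in KO against WT under LPS in granule-poor cells (1 and 4 with TMM), and 1 higher and 1 lower in the difference in response (0 and 2). Asprv1 under LPS was then at -0.050, and at -0.48 within WT, where 1 gene was called lower, against 4197 of all 12902. In cells marked by Xist alone, 0 of 6 were called lower in KO (4 over all cells), with Stfa3 at 0.31. Over all genes 538 of 10607 were called lower there, against 1951 of 12902 over all granule-poor cells. In the difference in response, 1 gene was called higher without a low-count filter, where 230 of 19784 genes tested were. The count was also 1 with the split at 1% (205 of 13089) and with no split (206 of 13350).

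In granule-rich KO against WT, 0 genes were called lower with TMM. The count was 2 without a low-count filter, where 1488 of 17431 genes tested were called lower. It was also 2 with the S100 gate at 10% (1204 of 9233) and with mixed barcodes removed (856 of 8324). It was 1 with the S100 gate at 2% (1127 of 10150), with the split at 0.2% (1340 of 10972) and with thinned cells (376 of 4651). With no split it was 3 (2209 of 12607), but that setting takes all neutrophils and is not a granule-rich value. Without WT LPS replicate 2, Stfa2l1 was at -0.37 and Cstdc4 at -0.47. Cstdc4 was at -0.46 without KO LPS replicate 1, and Stfa2 at 0.66 without WT LPS replicate 1. Scarce genes changed sign there. Stfa1 was at -0.0036 without the filter, and at -0.047 and -0.045 with the gate at 2% and 10%. It was at -0.10 with the split at 0.2%, and at -0.15 to 0.20 with 1 library left out. With no split, over all neutrophils, Stfa1 was at -0.34. Stfa2 was at -0.0074 with the gate at 10%, -0.030 with mixed barcodes removed, -0.61 in Xist-marked cells, and -0.28 to 0.66 with 1 library left out. Stfa3 was at 0.11 with plain totals, 0.069 thinned and -0.56 to 0.22 with 1 library left out. In thinned granule-poor cells Stfa2 in KO was at -0.014 and the Stfa3 difference in response at -0.67.

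Replicate numbers did not pair the libraries (correlation of deviations 0.066 in granule-poor and -0.048 in granule-rich cells). With the replicate block, the difference in response had 1 gene called higher, Asprv1 at 0.48 (edgeR, adjusted p = 0.024), against 152 of all 12902. Granule-rich KO against WT then had 2 called lower, against 1341 of all 9992. LPS against vehicle and the difference in response were not run in granule-rich cells, since the vehicle libraries hold 1 and 2 of them.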
